A study of Mus musculus with 9 samples.

Results

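The unfolded protein response genes were represented by 10 genes, found by symbol among the 22054 genes of the deposited table: Ern1, Eif2ak3, Atf6, Xbp1, Atf4, Ddit3, Creb3l2, Hspa5, Hsp90b1 and Dnajb9. They occupied 11 rows, because a second row also carried the symbol Ddit3 (identifier ENSMUSG00000116429), and that row was too low to be tested. The RNA was fracture callus taken on day 7 after femoral fracture from male C57BL/6J mice, 7 weeks old by the labels, and every mouse of every group carried the fracture. The mice received 200 μl by intraperitoneal injection each day for a week, containing H-151 (750 nmol), SR-717 (30 mg/kg) or PBS alone as the control, and each group had 3 libraries. H-151 inhibits and SR-717 activates STING, an adaptor of innate immunity that resides in the endoplasmic reticulum (ER), so the comparisons asked whether inhibiting or activating STING went with a difference in ER stress genes of the callus. The samples were labelled bone, and all 7 osteoblast markers and all 7 osteoclast markers were detected in every library.

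The unfolded protein response is the program by which a cell adjusts its ER to the load of secreted protein. Misfolded protein in the ER activates 3 sensors in its membrane: the kinase and RNase IRE1 (Ern1), the kinase PERK (Eif2ak3) and the transcription factor precursor ATF6. IRE1 splices the mRNA of Xbp1, PERK phosphorylates eIF2α and thereby favours translation of ATF4, and ATF6 is cut in the Golgi to release its active part. Chaperones such as BiP (Hspa5) are induced by these factors, and under lasting stress the factor CHOP (Ddit3) is induced by ATF4. Osteoblasts and chondrocytes secrete large amounts of collagen and therefore depend on this program, and Creb3l2 and its relative Creb3l1 are ER-bound transcription factors known from cartilage and bone.

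Library totals lay between 16987398 and 23272480 expected counts, and all 10 genes passed the filter on low counts in each of the 3 comparisons. Levels are given below as CPM, counts scaled by the TMM-normalized size of each library, which suits comparison of 1 gene between libraries, or as the deposited TPM, which is scaled for gene length and suits comparison between genes. SR-717 replicate 1 stood apart from the other 8 libraries, at 100.6 on a first principal component that held 46.6% of the variance, and the next library, PBS replicate 1, was at 38.8. In SR-717 replicate 1 the 7 neutrophil markers summed to 10660 CPM (382 to 2734 in the other libraries) and the 7 chondrocyte markers to 246 CPM (1590 to 16610 in the other libraries). Estimates for the SR-717 group that rest on that library are given with and without it.

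None of the 10 genes passed a threshold in any comparison. After adjustment over all genes, 0 of the 10 had an edgeR p under 0.05, as did 0 genes of the whole table (0% of 14151, 14070 and 14085 genes tested for SR-717 against H-151, SR-717 against PBS and H-151 against PBS), while 146, 97 and 91 genes had an unadjusted p under 0.05. DESeq2's Wald test gave 1, 0 and 0 genes at an adjusted p under 0.05, and limma's voom with sample quality weights gave 0 in each. The 1 gene was Myh8, a myosin heavy chain, named here after its value was seen. At the thresholds the study used, taken as an unadjusted p under 0.05 and a 1.5-fold change, 0 of the 10 genes passed in each comparison, against 0.756% (107), 0.519% (73) and 0.426% (60) of all genes tested. With a block for the replicate number, 443 genes passed these thresholds between SR-717 and PBS and 262 between H-151 and PBS, and again 0 of the 10 were among them.

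The direction of the estimates was mixed between SR-717 and H-151, with 6 of the 10 genes higher in the SR-717 group and a median log2 fold change of 0.06 (53.4% of all genes were higher, median 0.02). Against PBS, 2 of 10 were higher in the SR-717 group, with a median of -0.12 (52.2% and 0.01 over all genes). In the H-151 group 0 of 10 were higher than in the PBS group, with a median of -0.10 and a range from -0.78 to -0.02, where 44.2% of all genes were higher and the median was -0.025. Leaving out 1 library at a time moved these counts to between 3 and 7, between 0 and 5, and between 1 and 3. Without SR-717 replicate 1, 3 of 10 were higher in the SR-717 group than in the H-151 group and 0 of 10 were higher than in the PBS group. The 3 comparisons share their groups of libraries and are not independent of each other.

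**Figure D1:**
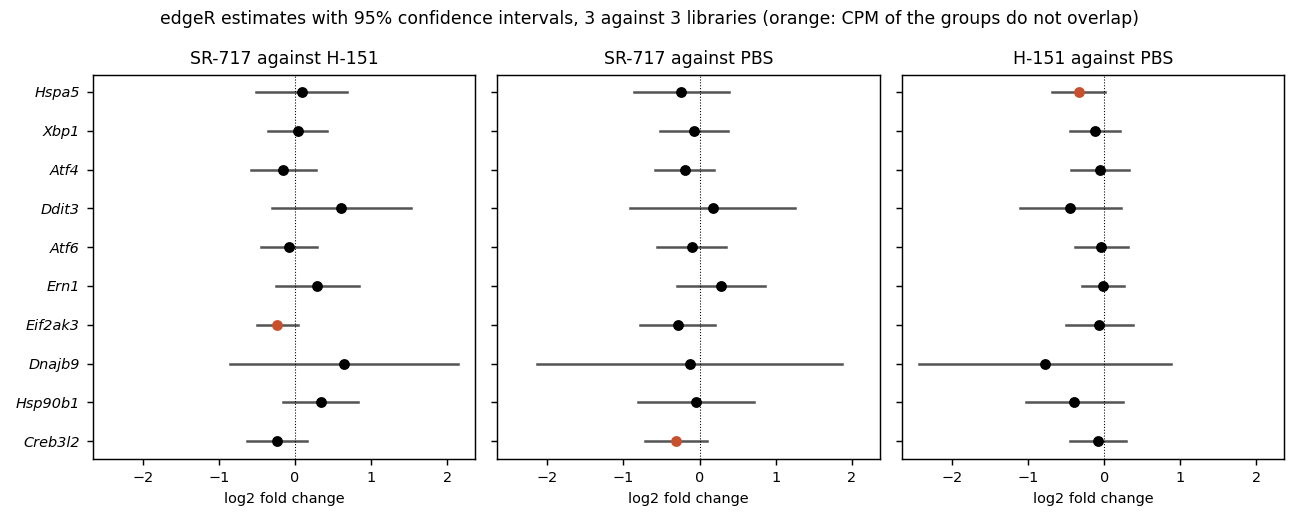
Fold changes of the 10 unfolded protein response genes (rows) on the log2 scale (x axis) in the 3 comparisons, with points for edgeR's estimates, lines for 95% confidence intervals and orange points where the CPM of the 2 groups do not overlap. Every interval includes 0, the 10 points of H-151 against PBS all lie below 0, and the widest intervals are those of Dnajb9.

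**Figure D2:**
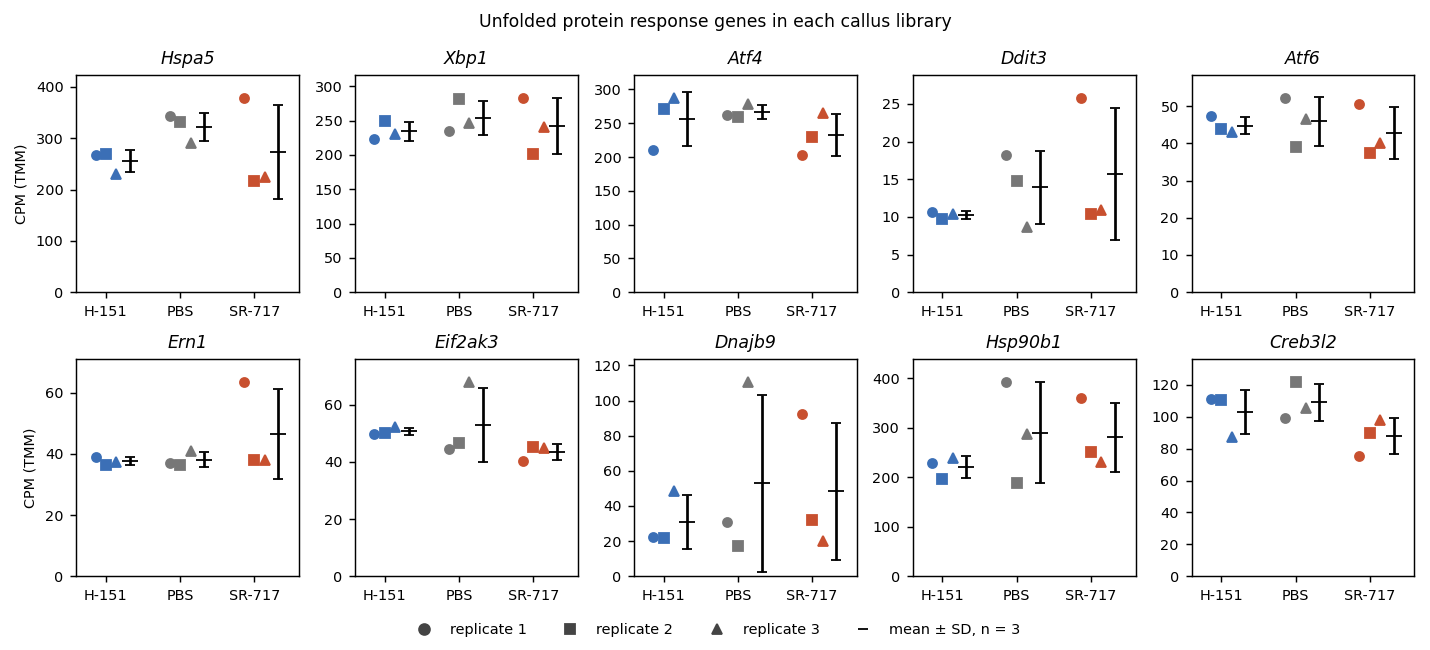
CPM (y axis, linear from 0) of each unfolded protein response gene in the 3 libraries of the H-151, PBS and SR-717 groups, with 1 symbol shape per replicate number and black bars for the mean ± SD. SR-717 replicate 1 holds the highest value of the 9 libraries for Hspa5 (378.5), Xbp1 (283), Ddit3 (25.8) and Ern1 (63.5), and the lowest for Eif2ak3 (40.3), Creb3l2 (75.5) and Atf4 (203).

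Among the sensors, Ern1 differed between libraries through 1 value. Ern1 (chr11:106394650-106487852, minus strand, GRCm38) was at 39.0, 36.5 and 37.45 CPM in the H-151 libraries, 37.1, 36.4 and 40.85 CPM in the PBS libraries and 63.5, 37.9 and 38.0 CPM in the SR-717 libraries. All libraries but SR-717 replicate 1 lay close together, and the groups overlapped in each comparison. The estimate for SR-717 against H-151 was a log2 fold change of 0.29 (SE 0.23, 95% interval -0.26 to 0.84), and without SR-717 replicate 1 it was 0.003. Against PBS the log2 fold change of the SR-717 group was 0.29 (SE 0.24), and -0.002 without that library. The H-151 and PBS groups differed by -0.02 (SE 0.12, 95% interval from 0.814-fold to 1.20-fold).

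Eif2ak3, which encodes PERK (chr6:70844515-70905245, plus strand), was at 49.9, 49.98 and 52.2 CPM in the H-151 libraries, 44.5, 46.6 and 68.0 CPM in the PBS libraries and 40.3, 45.2 and 44.9 CPM in the SR-717 libraries. Every SR-717 library was below every H-151 library, which was the case in either direction for 5.18% of all genes tested. The H-151 libraries had a small spread (50.7 ± 1.30 CPM, SD, n = 3) and the SR-717 libraries were at 43.4 ± 2.76 CPM. The log2 fold change of SR-717 against H-151 was -0.23 (SE 0.11, 95% interval -0.50 to 0.04, edgeR's adjusted p = 0.996), and -0.18 without SR-717 replicate 1. Against PBS the SR-717 group gave -0.29 (SE 0.21), or -0.23 without that library, and the H-151 group -0.06 (SE 0.19), with PBS replicate 3 the highest of all 9 libraries.

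The third sensor, Atf6 (chr1:170704674-170867771, minus strand), had the lowest mean of the 10 genes per length. It was at 47.4, 43.9 and 43.1 CPM with H-151, 52.2, 39.05 and 46.5 CPM with PBS and 50.6, 37.4 and 40.2 CPM with SR-717. The groups overlapped throughout, and the log2 fold changes were -0.08 (SE 0.15) for SR-717 against H-151, -0.10 (SE 0.19) for SR-717 against PBS and -0.035 (SE 0.145) for H-151 against PBS. The first 2 were -0.22 and -0.24 without SR-717 replicate 1.

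Downstream of IRE1, Xbp1 (chr11:5520659-5525893, plus strand) encodes the factor that induces chaperones and degradation genes once its mRNA has been spliced. IRE1 cuts exon 4 of its longest transcript (GENCODE, GRCm38) at a pair of CNGCAGC sites and removes 26 bases (chr11:5524279-5524304, plus strand), which shifts the reading frame and extends the predicted protein from 267 to 371 residues. The removed bases are printed in capitals between 14 bases on either side, since they are what separates the unspliced from the active form.
Xbp1 intron: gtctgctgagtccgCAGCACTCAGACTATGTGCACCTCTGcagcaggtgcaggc
Counts per gene do not separate the forms with and without these bases, so the values below are their sum. Xbp1 was at 223, 249 and 230.2 CPM in the H-151 libraries, 234, 281.5 and 246 CPM in the PBS libraries and 283, 202 and 241 CPM in the SR-717 libraries. It had the smallest spread of the 10 genes, with a coefficient of variation of 10.8% over the 9 libraries (21.3% for the median gene). The log2 fold changes were 0.04 (SE 0.16) for SR-717 against H-151, -0.07 (SE 0.185) for SR-717 against PBS and -0.12 (SE 0.14) for H-151 against PBS, and the 95% interval of the first ran from 0.785-fold to 1.34-fold. Without SR-717 replicate 1 the first turned to -0.09 and the second was -0.19.

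Atf4 (chr15:80255184-80257541, plus strand) encodes the factor whose translation PERK favours, so its mRNA level is not a measure of that step. Its mRNA was at 211, 271 and 287.5 CPM in the H-151 libraries, 262, 259 and 279 CPM in the PBS libraries and 203, 230 and 264 CPM in the SR-717 libraries. The groups overlapped, and the log2 fold changes were -0.15 (SE 0.175), -0.20 (SE 0.16) and -0.06 (SE 0.16) for SR-717 against H-151, SR-717 against PBS and H-151 against PBS. Without SR-717 replicate 1, the lowest of the 9 libraries, the first was -0.06 and the second -0.11.

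Ddit3 (chr10:127290774-127296288, plus strand) encodes CHOP, a factor of the late response that is linked to cell death. It was at 10.6, 9.71 and 10.4 CPM in the H-151 libraries, 18.3, 14.8 and 8.71 CPM in the PBS libraries and 25.8, 10.4 and 10.97 CPM in the SR-717 libraries. The H-151 libraries were nearly equal (10.3 ± 0.481 CPM, SD, n = 3), whereas the SR-717 group was spread around 15.7 ± 8.75 CPM by its replicate 1. SR-717 against H-151 gave a log2 fold change of 0.61 (SE 0.38, 95% interval -0.31 to 1.52, adjusted p = 0.996), and 0.05 without SR-717 replicate 1. Against PBS the SR-717 group gave 0.17 (SE 0.45), which turned to -0.39 without that library. H-151 against PBS gave -0.44 (SE 0.28, 95% interval -1.11 to 0.23, adjusted p = 1), and without PBS replicate 3, the lowest of the 9 libraries, it was -0.69 and past the study's thresholds. In that fit 153 of 14252 genes tested passed them, against 60 of 14085 with all libraries. Ddit3 overlaps Mars on the opposite strand, and the sources used here do not say whether reads were counted by strand.

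Creb3l2 (chr6:37327255-37442146, minus strand), whose product activates secretory pathway genes in cartilage, was at 111, 110.2 and 87.0 CPM in the H-151 libraries, 99.0, 122 and 105.7 CPM in the PBS libraries and 75.5, 89.8 and 98.2 CPM in the SR-717 libraries. All SR-717 libraries were below all PBS libraries, as was the case in either direction for 3.75% of all genes tested. The log2 fold change was -0.31 (SE 0.17, 95% interval -0.72 to 0.10, edgeR's adjusted p = 1), and -0.21 without SR-717 replicate 1. That library was also the lowest in chondrocyte markers, whose part in the difference was not tested. SR-717 against H-151 gave -0.24 (SE 0.165), or -0.14 without that library, and H-151 against PBS gave -0.08 (SE 0.155).

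Of the chaperones, Hspa5 (chr2:34771970-34777547, plus strand) encodes BiP, the ER Hsp70 that binds unfolded protein and holds the sensors inactive. It was at 267, 268 and 230.1 CPM in the H-151 libraries, 343, 332 and 291.5 CPM in the PBS libraries and 378.5, 217 and 224 CPM in the SR-717 libraries. Every H-151 library was below every PBS library (3.87% of all genes tested did not overlap in this comparison), and of the SR-717 libraries replicates 2 and 3 were also below every PBS library while replicate 1 was above. The group levels were 255 ± 21.6 CPM with H-151, 322 ± 27.3 CPM with PBS and 273 ± 91.3 CPM with SR-717 (SD, n = 3). H-151 against PBS gave a log2 fold change of -0.34 (SE 0.145, 95% interval -0.68 to 0.006, 0.792-fold, edgeR's adjusted p = 1). With a block for the replicate number the estimate was again -0.34, short of the 1.5-fold threshold. SR-717 against PBS gave -0.24 (SE 0.26, 95% interval -0.86 to 0.38, adjusted p = 1), and without SR-717 replicate 1 it was -0.55, also short of 1.5-fold. SR-717 against H-151 gave 0.09 (SE 0.25), and -0.22 without that library.

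Hsp90b1 (chr10:86690209-86705509, minus strand) encodes GRP94, the Hsp90 of the ER. It was at 228, 197 and 239 CPM in the H-151 libraries, 393, 189 and 288 CPM in the PBS libraries and 361, 252 and 231 CPM in the SR-717 libraries. The groups overlapped in every comparison, and the PBS libraries alone spanned the range of the other 6. The log2 fold changes were 0.34 (SE 0.20) for SR-717 against H-151, -0.04 (SE 0.32) for SR-717 against PBS and -0.39 (SE 0.27) for H-151 against PBS. Without SR-717 replicate 1 the first was 0.12 and the second -0.265. Without PBS replicate 2, the lowest of the 9 libraries, the value for H-151 against PBS was -0.61 and past the study's thresholds. In that fit 698 of 14229 genes tested passed them, against 60 of 14085 with all libraries.

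Both of these chaperone genes carried an ER stress response element, the sequence through which ATF6 acts with the factor NF-Y. The element was searched as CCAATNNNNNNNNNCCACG on both strands of the RefSeq promoters of GRCm38.p6, which span 250 bases before to 50 bases after each start site, and 39 of 32851 promoters (0.119%) held it. Of the 10 genes, 9 had a promoter entry, and 2 of the 9 held the element, once in Hspa5 (chr2:34772025-34772043, plus strand) and at 2 places in Hsp90b1 (chr10:86705638-86705656, minus strand, and chr10:86705533-86705551, plus strand). They are shown with the elements of Pdia6 (chr12:17266491-17266509, plus strand) and Calr (chr8:84847075-84847093, plus strand), a disulfide isomerase and a lectin chaperone of the ER, with the CCAAT and CCACG blocks in capitals.
Hspa5: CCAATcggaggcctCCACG
Hsp90b1, distal: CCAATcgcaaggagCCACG
Hsp90b1, proximal: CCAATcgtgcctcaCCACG
Pdia6: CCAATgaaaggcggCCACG
Calr: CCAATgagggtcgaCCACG
Counted from the RefSeq start sites, the Hspa5 element began 65 bases before the start (position -65), the elements of Hsp90b1 at -212 and -107, that of Pdia6 at -98 and that of Calr at -162. The GENCODE start of Hspa5 given above lies further upstream, so by GENCODE the Hspa5 element is inside the gene. Over the members and the pathway lists described below, 10 genes of 88 with a promoter entry held the element. Among the 9 of them tested between H-151 and PBS, 8 were lower in the H-151 group, with a median log2 fold change of -0.205 (all genes -0.025, 44.2% higher), and 0 passed a threshold. Between SR-717 and H-151, 7 of 9 were higher with SR-717 (median 0.16, with 53.4% of all genes higher), while SR-717 against PBS had 5 of 10 higher (median 0.005, with 52.2% of all genes higher). Without SR-717 replicate 1, Hspa5 and Canx turned to -0.22 and -0.16 between SR-717 and H-151. Calr, Hsp90b1, Pdia6, Creld2 and Syvn1 stayed higher there (0.055 to 0.28), and Ero1b and Dnajc3 stayed lower. In SR-717 against PBS, Ero1b turned from 0.09 to -0.12. Pdia6 was at 253, 254 and 242 CPM with H-151, 272, 281 and 320.4 CPM with PBS and 304, 319 and 289 CPM with SR-717. All H-151 libraries of Pdia6, a gene chosen after its values were seen, were below all libraries of the other groups (groups did not overlap for 3.87% of all genes tested between H-151 and PBS and for 5.18% between SR-717 and H-151), with log2 fold changes of -0.22 (SE 0.13, 95% interval -0.54 to 0.10) against PBS and, in SR-717 against H-151, 0.28 (SE 0.12, 95% interval -0.01 to 0.56). A match of these letters is a description of the sequence and does not show that a factor was bound there.

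Dnajb9 (chr12:44205559-44210326, minus strand) encodes ERdj4, a co-chaperone of BiP and a target of XBP1, and it was the most variable of the 10 genes. It was at 22.3, 21.6 and 48.45 CPM in the H-151 libraries, 30.7, 17.1 and 110.6 CPM in the PBS libraries and 92.4, 32.2 and 20.1 CPM in the SR-717 libraries. The high values were PBS replicate 3 and SR-717 replicate 1, and each group held values close to 20 or 30 CPM as well. Its coefficient of variation over the 9 libraries was 77.9%, above 93.9% of all genes kept, and that of Ddit3 was 41.8%. The log2 fold changes were 0.64 (SE 0.62) for SR-717 against H-151, -0.13 (SE 0.83) for SR-717 against PBS and -0.78 (SE 0.70) for H-151 against PBS. Leaving out SR-717 replicate 1 turned the first to -0.235 and moved the second to -0.999, and leaving out PBS replicate 3 turned the last to 0.37. The 95% interval of SR-717 against H-151 ran from 0.552-fold to 4.41-fold, so 3 libraries a group could not tell a change within these bounds from none.

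Several libraries in which Dnajb9 was high or low also stood apart in other transcripts of low GC content. The longest Dnajb9 transcript has 40.6% GC, the lowest of the 10 genes, against 49.9% for the median of all genes, and Hsp90b1 followed with 42.1%. The 841 genes under 40% GC deviated from their own means over the 9 libraries by a median log2 CPM of 0.62 in SR-717 replicate 1, 0.29 in H-151 replicate 3 and 0.25 in PBS replicate 3. In PBS replicate 2, SR-717 replicate 3 and H-151 replicate 2 the same median was -0.49, -0.46 and -0.42. Dnajb9 deviated by 1.39, 0.46 and 1.65 in the first 3 of these libraries and by -1.04, -0.80 and -0.70 in the others. In PBS replicate 1, SR-717 replicate 2 and H-151 replicate 1 the median was 0.10, 0.03 and -0.19, where Dnajb9 deviated by -0.19, -0.13 and -0.66. PBS replicate 3 thus had the highest Dnajb9 value with a smaller median than H-151 replicate 3. Within PBS replicate 2 the deviation correlated with GC content across 14277 genes with a Spearman rho of 0.59, within SR-717 replicate 1 with -0.29 and within PBS replicate 3 with -0.195 (genes are not independent replicates).

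After the trend with GC content was removed from each library, an alternative chosen after seeing the data, the SD of log2 CPM over the 9 libraries changed from 0.97 to 0.73 for Dnajb9 and from 0.36 to 0.22 for Hsp90b1. Adjusted in this way, Dnajb9 remained at 97.1 CPM in PBS replicate 3 and 68.4 CPM in SR-717 replicate 1, where the other 7 libraries ranged from 22.7 to 41.6 CPM. For Ddit3, with 45.6% GC, the SD was 0.51 before and 0.50 after. In edgeR with the GC trend as an offset, 0 of the 10 genes passed a threshold in any comparison, and Dnajb9 had log2 fold changes of 0.43, -0.22 and -0.68 in the 3 comparisons. What sets the trend with GC content in each library was not tested.

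**Figure D3:**
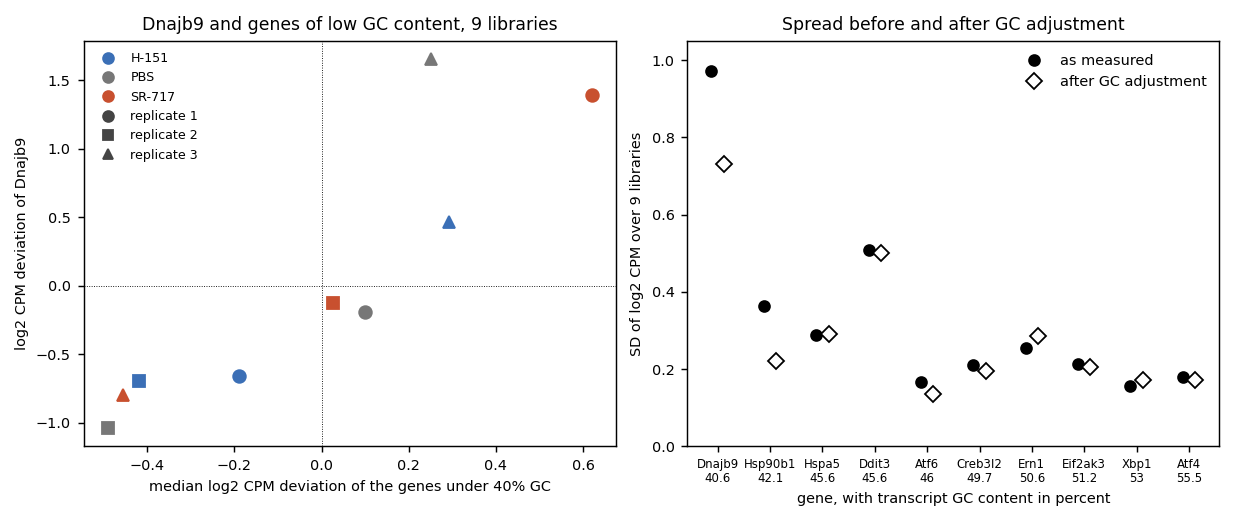
On the left, the log2 CPM deviation of Dnajb9 from its mean over the 9 libraries (y axis) is plotted against the median deviation of the 841 genes under 40% GC (x axis), 1 point per library. On the right, the SD of log2 CPM over the 9 libraries is shown for each of the 10 genes in the order of their transcript GC content, before (filled) and after (open) the GC trend was removed, and the SD of Dnajb9 goes from 0.97 to 0.73.

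Per length, the 10 genes fell into 2 tiers in the deposited TPM. Atf4 was highest with a mean over the 9 libraries of 269 ± 34.8 TPM (SD), followed by Xbp1 with 219.8 ± 27.8 TPM, Hspa5 with 198 ± 44.5 TPM and Hsp90b1 with 171 ± 43.6 TPM. Neighbours within this tier overlapped between libraries, with Atf4 above Xbp1 in 8 of 9 libraries, Xbp1 above Hspa5 in 7 and Hspa5 above Hsp90b1 in 7. The step to the next gene was the only one between neighbours without overlap: Hsp90b1 was above Dnajb9 by 140.0 ± 41.9 TPM and in all 9 libraries. Dnajb9 (31.9 ± 23.5 TPM), Ddit3 (29.2 ± 10.7 TPM) and Creb3l2 (26.2 ± 5.37 TPM) were not ordered beyond their spread, since Dnajb9 exceeded Ddit3 in 4 of 9 libraries and Ddit3 exceeded Creb3l2 in 4 of 9. The kinases and the third sensor came last, with Eif2ak3 at 20.3 ± 3.46 TPM, Ern1 at 11.6 ± 2.07 TPM and Atf6 at 11.3 ± 1.53 TPM, and Ern1 was above Atf6 in 4 of 9 libraries.

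**Figure D4:**
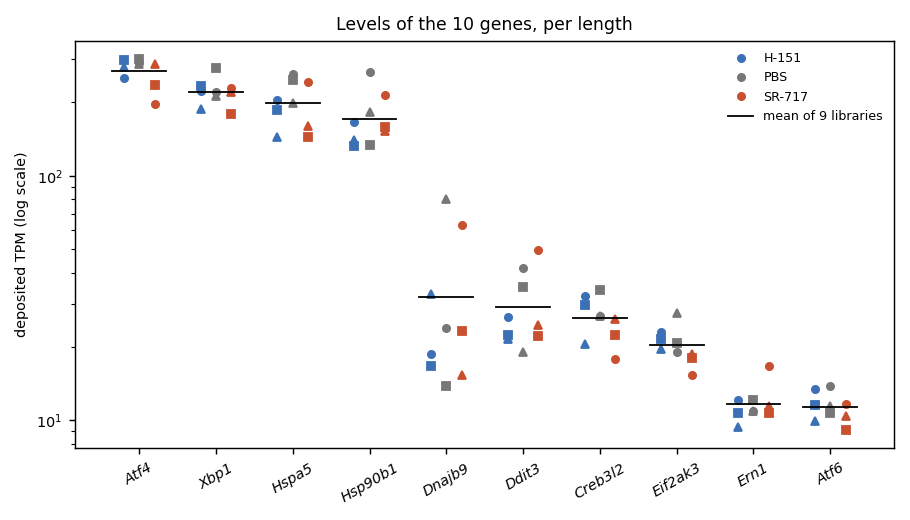
Deposited TPM (y axis, log scale) of the 10 unfolded protein response genes in the order of their mean over the 9 libraries (black lines), with colours for the groups and 1 symbol shape per replicate number (circles 1, squares 2, triangles 3). Atf4, Xbp1, Hspa5 and Hsp90b1 lie above 100 TPM in every library and the other 6 genes lie below it.

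Within libraries, the 10 genes did not move as 1 block. Over their 45 pairs the median Pearson r of log2 CPM across the 9 libraries was 0.18, with 27 pairs above 0. Without SR-717 replicate 1 the median was 0.15, with 31 pairs above 0. The values share the same 9 libraries and normalization and are given as a description. Hspa5 correlated with Ddit3 (r = 0.78) and with Xbp1 (r = 0.74), and without SR-717 replicate 1 these were 0.64 and 0.62 over 8 libraries. Ern1 and Ddit3 had an r of 0.68 over 9 libraries and -0.55 over 8. The highest r over 8 libraries was that of Eif2ak3 and Dnajb9 (0.835, and 0.37 over 9). Ern1 and Eif2ak3 went from -0.33 over 9 libraries to 0.74 over 8. The pairs named are examples chosen after their values were seen. Eif2ak3 and Ddit3 ran opposite, with an r of -0.71 over 9 libraries and -0.62 over 8.

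The balance between a late and an early gene of the response was compared as the difference of log2 CPM within each library. The log2 ratio of Ddit3 to Hspa5 was -4.65, -4.79 and -4.47 in the H-151 libraries, -4.23, -4.485 and -5.07 in the PBS libraries and -3.87, -4.39 and -4.35 in the SR-717 libraries. All SR-717 libraries were above all H-151 libraries, with a mean difference of 0.43 (two-sided exact permutation p = 0.1, the smallest that 3 against 3 libraries allow, adjusted p = 0.6 over 6 tests). That difference was 0.27 without SR-717 replicate 1. The difference was 0.39 for SR-717 against PBS (exact p = 0.4), or 0.155 without PBS replicate 3 and 0.225 without SR-717 replicate 1, and -0.04 for H-151 against PBS (exact p = 1). Same-numbered libraries were taken as pairs, although the labels state no pairing. The ratio of Ddit3 to Hspa5 was higher with SR-717 than with PBS in 3 of 3 pairs, by 0.36, 0.10 and 0.715 (two-sided exact sign-flip p = 0.25, the smallest that 3 pairs allow, chosen after seeing the data). For the ratio of Dnajb9 to Xbp1 the differences were 0.42, 0.095 and -0.32 in the 3 comparisons (exact p = 0.7, 0.9 and 0.8), with libraries between -4.04 and -1.15.

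The genes most like each member over the 9 libraries were named by the highest Pearson r among all genes kept, as a description. Dnajb9 had 351 genes with an r over 0.9, whose median GC content was 40.8%, and the closest were Tmx1 and Mtf2 (both r = 0.994). Tmx1, a thioredoxin-related protein of the ER membrane, was at 49.5, 49.0 and 112 CPM with H-151, 58.6, 38.3 and 260.5 CPM with PBS and 229, 65.2 and 48.1 CPM with SR-717, and its longest transcript has 40.9% GC. Tmx1 thus peaked in the same libraries as Dnajb9. Ddit3 had 292 such genes with a median GC content of 53.5%, led by Adora2a (r = 0.98), an adenosine receptor, and Mafg (r = 0.98), and Adora2a and Mafg stayed among the closest 3 without SR-717 replicate 1 (0.975 and 0.97). Ern1 had 167, led by Mcmbp (r = 0.985), and its closest 3 genes were all different over the 8 libraries without SR-717 replicate 1. Hspa5 had 8 and Xbp1 had 4 genes above that value, led by Spata5l1 (r = 0.95) and Camkk1 (r = 0.92). The closest genes were Ccdc107 for Atf4 (0.97), Ndfip2 for Atf6 (0.97), Arfgap3 for Eif2ak3 (0.96), Sltm for Hsp90b1 (0.975) and Pkd1 for Creb3l2 (0.97).

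The wider pathway was followed through 7 lists of genes, and 1 gene of them passed the study's thresholds in any comparison (1 of 90 tested, 1.11%, in SR-717 against H-151, where 0.756% of all genes passed). Stc2, a secreted glycoprotein induced by ATF4, was at 6.96, 5.52 and 5.945 CPM in the H-151 libraries, 4.00, 5.87 and 5.955 CPM in the PBS libraries and 2.58, 4.60 and 4.26 CPM in the SR-717 libraries. Its log2 fold change of SR-717 against H-151 was -0.70 (SE 0.28, 95% interval -1.38 to -0.02, edgeR's adjusted p = 0.996). The 2 groups did not overlap, as was the case in either direction for 5.18% of all genes tested. The call was lost in 5 of the 6 fits that left out 1 library, all but the one without SR-717 replicate 2, and also in other settings given in the closing section. The estimate was -0.48 without SR-717 replicate 1. Among the 173 genes that the deposited table assigns to the KEGG pathway of protein processing in the ER, which includes 8 of the 10 members, the only gene past these thresholds was Mapk10, a stress kinase at under 1 CPM in every library, with a log2 fold change of -2.20 (SE 0.49, adjusted p = 0.996) for SR-717 against H-151, or -1.85 without SR-717 replicate 1. That was 1 of 162 genes tested (0.617%), near the 0.756% of all genes.

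ER chaperones and folding enzymes (20 genes) had 17 lower and 3 higher in the H-151 group than in the PBS group, with a median log2 fold change of -0.14. They had 13 of 20 higher in the SR-717 group than in the H-151 group (median 0.11) and 10 of 20 higher than in the PBS group (median -0.01), and 0 passed a threshold. The most abundant were Serpinh1 (mean 2219 TPM), the collagen chaperone HSP47, and P4hb (1057 TPM), a disulfide isomerase and subunit of prolyl hydroxylase. Serpinh1 had log2 fold changes of -0.04 (SE 0.23), -0.255 (SE 0.25) and -0.225 (SE 0.19) for SR-717 against H-151, SR-717 against PBS and H-151 against PBS, and without SR-717 replicate 1 the first turned to 0.115. Ero1a, the oxidase of disulfide formation, was at 41.3, 33.4 and 27.4 CPM with H-151, 76.2, 28.0 and 27.75 CPM with PBS and 207, 34.4 and 26.0 CPM with SR-717. The value of SR-717 replicate 1 was far above the other 8, and the log2 fold change against H-151 was 1.38 (SE 0.80, 95% interval -0.56 to 3.32), which turned to -0.18 without that library. Sdf2l1, a partner of BiP, gave 0.39 (SE 0.29) in that comparison and 0.01 without it.

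ER-associated degradation (14 genes) had 10 of 13 tested genes higher in the SR-717 group than in the H-151 group, 10 of 14 higher in it than in the PBS group and 6 of 13 higher with H-151 than with PBS, with medians of 0.06, 0.07 and -0.05. Its most abundant genes were Vcp (204 TPM), the ATPase that extracts substrates from the membrane, with 0.06 (SE 0.13) for SR-717 against H-151, and the lectin Os9 (118 TPM) with 0.17 (SE 0.12). The largest differences in that comparison were those of Edem3 (0.28, SE 0.38) and Ube2j1 (0.196, SE 0.32), and without SR-717 replicate 1 they turned to -0.25 and -0.23. ER translocation and export (18 genes) had 8, 6 and 6 genes higher in the 3 comparisons, with medians of -0.11, -0.11 and -0.045. Ssr2 (512 TPM), a translocon subunit, gave -0.19 (SE 0.17) for SR-717 against H-151 and Spcs1 (470.4 TPM), a signal peptidase subunit, gave -0.11 (SE 0.21), while the largest differences were those of Sar1b (0.31, SE 0.315) and Sec61g (-0.27, SE 0.23), or 0.165 and -0.12 without SR-717 replicate 1, where Ssr2 gave -0.07 and Spcs1 turned to 0.07.

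Targets of ATF4 and CHOP (26 genes, 25 tested) had 11, 14 and 7 genes higher in the 3 comparisons, with medians of -0.03, 0.02 and -0.12. The largest difference was that of Slc7a11, the cystine transporter, which was at 10.2, 3.84 and 1.945 CPM with H-151, 30.0, 2.03 and 1.74 CPM with PBS and 183, 3.80 and 3.85 CPM with SR-717. Replicate 1 was the highest of its group in all 3 groups, and the log2 fold change of SR-717 against H-151 was 3.55 (SE 1.67, 95% interval -0.49 to 7.60), which turned to -0.49 without SR-717 replicate 1. With a block for the replicate number, Slc7a11 passed the study's thresholds between SR-717 and PBS. Without a block that comparison gave 2.50 (SE 1.85) and did not pass, and it turned to -1.57 without SR-717 replicate 1. Gdf15, a stress-induced cytokine, showed the same library standing out, at 10.7 CPM in SR-717 replicate 1 against 1.11 to 4.17 CPM elsewhere (log2 fold change of SR-717 against H-151 1.52, SE 0.84, and -0.03 without that library). The most abundant targets, Nupr1 (246 TPM) and Slc3a2 (125.5 TPM), gave -0.21 (SE 0.29) and 0.32 (SE 0.32), which turned to 0.04 and -0.09 without it.

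The eIF2α kinases and phosphatase subunits were listed with Eif2s1, which encodes eIF2α itself (6 genes in all). This list had 3, 5 and 3 genes higher, with medians of 0.06, 0.11 and -0.04. Without SR-717 replicate 1, Eif2ak2 and Eif2s1 turned to -0.13 and -0.05 in SR-717 against PBS. Ppp1r15a and Ppp1r15b, the subunits that direct eIF2α dephosphorylation, gave -0.03 (SE 0.34) and 0.15 (SE 0.17) for SR-717 against H-151, the interferon-induced kinase Eif2ak2 gave 0.40 (SE 0.30) and Eif2ak4 gave -0.23 (SE 0.14). These 4 values were -0.33, -0.01, 0.18 and -0.22 without SR-717 replicate 1. The relatives and proteases of ATF6 and Creb3l2, listed with the vesicle coat genes Sec23a and Sec24d (9 genes in all), had 3, 2 and 3 genes higher, with medians of -0.14, -0.135 and -0.09. Without Sec23a and Sec24d, which are not relatives or proteases, the same numbers of 7 genes were higher and the medians were -0.05, -0.12 and -0.08. Creb3l1, which drives collagen expression in osteoblasts, was the most abundant at 156 TPM and gave 0.10 (SE 0.19), and Mbtps1, the site-1 protease that cuts ATF6, gave -0.19 (SE 0.19). The largest positive differences were those of Atf6b (0.28, SE 0.18) and of Creb3l4 (0.27, SE 0.365), the latter at under 1 CPM. Without SR-717 replicate 1 Creb3l1 gave 0.25, Mbtps1 -0.025, Atf6b 0.09 and Creb3l4 0.02. Of the 4 genes listed as partners or paralog of IRE1, Rtcb, the ligase that joins the Xbp1 exons, gave -0.07 (SE 0.125), Traf2 gave 0.19 (SE 0.17) and Map3k5 gave 0.17 (SE 0.15), and the paralog Ern2 was too low to be tested. Those 3 values were 0.01, 0.03 and 0.03 without SR-717 replicate 1. The KEGG list had 96 of 162, 73 of 160 and 54 of 161 tested genes higher, with medians of 0.04, -0.04 and -0.07.

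**Figure D5:**
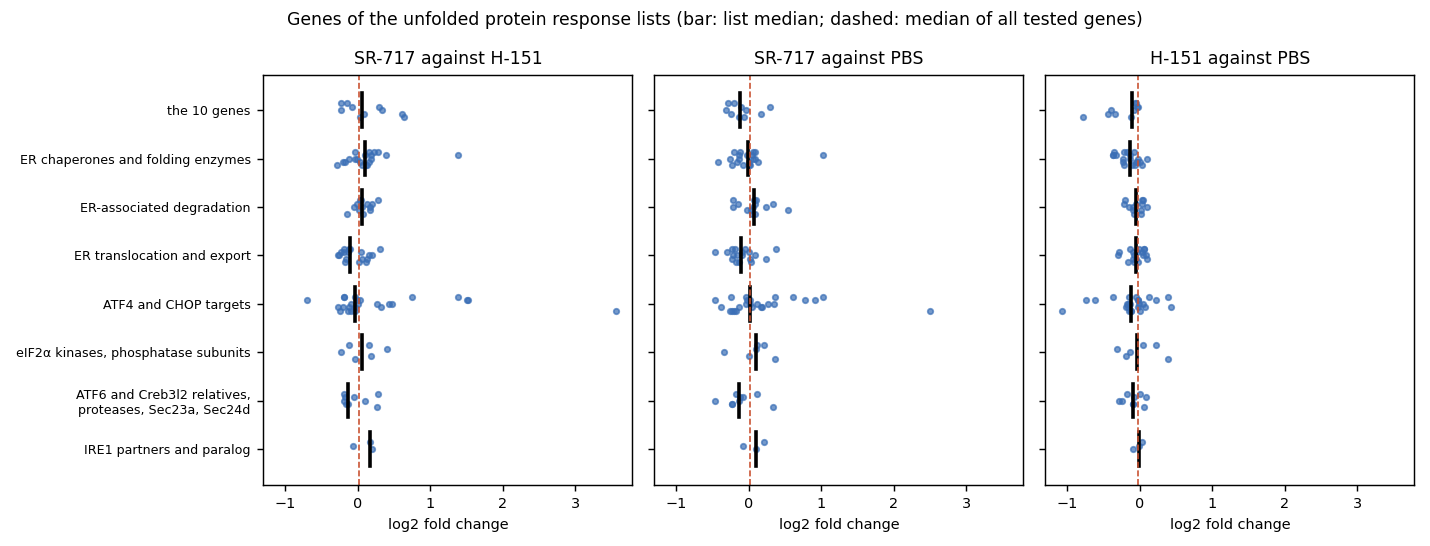
Log2 fold changes (x axis) of the genes of 8 lists (rows), 1 point per gene tested, in the 3 comparisons, with black bars for list medians and a dashed line for the median of all genes tested. The point at 3.55 in the row of ATF4 and CHOP targets is Slc7a11, and most points of ER chaperones and folding enzymes lie below 0 in H-151 against PBS.

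In whole callus, fewer cells of a type and less RNA per cell cannot be told apart. Markers of several cell types were summed as a description, and these sums do not count cells. The 9 plasma cell markers summed to 304 to 443.9 CPM with H-151, 334 to 478 CPM with PBS and 339 to 748 CPM with SR-717, the highest being SR-717 replicate 1. Most of the sum was Sdc1, which other cells also express. SR-717 replicate 1 was also the highest library for Igkc (166 CPM against 6.52 to 54.05 in the others), Jchain (19.6 against 1.35 to 15.6), Prdm1 (40.3 against 11.7 to 31.6) and Derl3 (1.03 against 0.343 to 0.704). It was not the highest for Ighm (112 CPM, with 123.5 in PBS replicate 2) or Mzb1 (4.85, with 5.03 in PBS replicate 2). The same held for Irf4 (3.61, with 6.90 in H-151 replicate 2) and Sdc1 (400, with 403.7 in PBS replicate 1). The defining marker Tnfrsf17 was at 0 in SR-717 replicate 1 and at most 0.380 CPM elsewhere. The 7 osteoblast markers summed to 29020 to 38160 CPM, 29590 to 43000 CPM and 22500 to 45000 CPM, with SR-717 replicate 1 the lowest. For the 7 chondrocyte markers the sums were 5645 to 11800 CPM, 1590 to 16610 CPM and 246 to 9484 CPM, again with SR-717 replicate 1 the lowest. The 7 osteoclast markers summed to 4097 to 7599 CPM, 5549 to 7522 CPM and 3629 to 6691 CPM. The 6 macrophage markers summed to 749 to 959 CPM, 774 to 1191 CPM and 974 to 1788 CPM. The 6 skeletal muscle markers summed to 10590 to 17910 CPM, 3964 to 18010 CPM and 9039 to 23050 CPM. PBS replicate 3 was the lowest and SR-717 replicate 1 the next, the libraries with the highest Dnajb9. The log2 muscle sum had an r of -0.80 with Dnajb9 over 9 libraries and -0.82 over 8. For the erythroid sum and Hsp90b1 the r was -0.95 and -0.93. Both were named after their values were seen. The part of these cell types in the values of the 10 genes was not tested.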

How the data were processed

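Callus mRNA of 9 libraries, 3 per group, was poly(A)-selected, made strand-specific with dUTP and sequenced as paired ends by a service company. The deposited table gives expected counts that the authors did not normalize and the TPM values they computed, and the submitters' processing notes name the build mm10. The aligner, the counting program and the annotation are not given in the sources used here. Fractional values made up 8.91% of the expected counts, and rounding to whole numbers was a change to the planned design. The alternatives chosen after seeing the data, named below, were additions to it. The extraction text in the labels speaks of cell lines although the samples are labelled bone. Whether the 3 libraries of a group came from separate mice is labelled only as separate biosamples, so p-values measure the spread between these samples. Of the 36 pairs of libraries, 0 held identical counts.

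Groups were compared by edgeR 4.0.16 under R 4.3.3 (the default low-count filter of filterByExpr, TMM, glmQLFit and glmQLFTest) on the 6 libraries of each comparison, with Benjamini-Hochberg adjustment over all genes tested. Genes were called at an adjusted p under 0.05 and at the study's thresholds, an unadjusted p under 0.05 with a fold change of 1.5. SEs were derived from the F statistic. Log2 CPM used a prior count of 2. Within-library ratios were compared by exact permutation. The steps were tested on simulated data. The labels number the biosamples but state no pairing. Deviations of same-numbered libraries correlated between SR-717 and PBS (r of 0.65, 0.34 and 0.14 for replicates 1, 2 and 3) and between H-151 and PBS (0.305, 0.485 and 0.50). SR-717 replicate 3 correlated more with PBS replicate 2 (0.342) than with PBS replicate 3. Taking the numbers as pairs is thus an assumption drawn from these data, on which the block and the sign-flip test rest. Alternatives were DESeq2 1.42.0 (size factors in edgeR, and its Wald test), limma 3.58.1 (voom with sample quality weights), no filter, a stricter filter (mean count of 50), a joint fit of 9 libraries, a block for the replicate number, the omission of single libraries and, chosen after seeing the data, a correction for transcript GC content and an exact sign-flip test of paired ratios. The deposited table's KEGG annotation gave 1 list. Positions and GC content come from GENCODE on GRCm38 (the same build), and GC content of the longest transcript was known for 99.9% of genes. Promoters come from RefSeq (GRCm38.p6).

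All 10 genes are described. From each list the text names the genes past the study's thresholds, the 2 with the highest mean TPM and the 2 with the largest change between SR-717 and H-151. Pdia6 and Calr, Tmx1 with its values, and the genes named with leave-outs were chosen after their values were seen. The 10 genes and all lists were chosen with earlier results of these data known. Further promoter motifs were searched and are given in the closing section.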

Additional observations from a re-analysis of the deposited data

How the results depend on the processing

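Under the alternatives other than leaving out a library, the log2 fold changes of the 10 genes kept their direction in all but 5 cases, and none of the 10 passed a threshold. With voom and sample quality weights, SR-717 against H-151 turned to -0.239 for Hspa5 and -0.14 for Xbp1, SR-717 against PBS turned to -0.286 for Ddit3, and 1 member was higher in SR-717 against PBS. In SR-717 against PBS, Dnajb9 turned to 0.146 with the replicate block and to 0.005 with the replicate block and GC correction. Measured by TPM, the Ddit3 to Hspa5 difference of H-151 against PBS was 0.031. Counts over all genes past the study's thresholds moved by more than 1.5 times. In SR-717 against H-151 they were 209 with DESeq2's Wald test (1 gene at an adjusted p under 0.05), 474 with voom, 223 without a filter, 61 at a mean count of 50, 171 with 9 libraries fitted jointly and 186 with the block and GC correction. In SR-717 against PBS they were 138, 267, 194, 37, 176 and 506, and 443 with the block alone. In H-151 against PBS they were 144 with voom, 127 without a filter, 28 at a mean count of 50, and 262 with the block, with or without GC correction. Genes of the pathway lists past these thresholds in SR-717 against H-151 numbered 2 with DESeq2 and 0 with voom or the block, with or without GC correction (Stc2 lost its call in these 3), and in SR-717 against PBS 1 with the block and 2 with GC correction added. The numbers did not pair the SR-717 and H-151 samples (r of 0.342, 0.062 and 0.079), although pairing both groups to PBS by number would pair them too. The block gave 143 genes in SR-717 against H-151.

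Leaving out 1 library at a time, the counts of genes past the study's thresholds ranged from 64 to 661 in SR-717 against H-151 (without H-151 replicate 2 and SR-717 replicate 3), from 95 to 319 in SR-717 against PBS (without PBS replicate 3 and SR-717 replicate 3) and from 43 to 698 in H-151 against PBS (without H-151 replicate 2 and PBS replicate 2). Members past them ranged from 0 to 1 in H-151 against PBS, members higher from 3 to 7, 0 to 5 and 1 to 3, and pathway list genes from 0 to 3, 0 to 1 and 0 to 1. Ranges of log2 fold changes that crossed 0 in SR-717 against H-151 were -0.22 to 0.227 for Hspa5, -0.089 to 0.152 for Xbp1, -0.216 to 0.007 for Atf6 and -0.235 to 1.122 for Dnajb9. In SR-717 against PBS they were -0.194 to 0.044 for Xbp1, -0.386 to 0.416 for Ddit3, -0.002 to 0.412 for Ern1, -0.999 to 1.013 for Dnajb9 and -0.285 to 0.237 for Hsp90b1. In H-151 against PBS they were -0.147 to 0.069 for Atf4, -0.129 to 0.079 for Atf6, -0.04 to 0.036 for Ern1, -0.164 to 0.155 for Eif2ak3, -1.264 to 0.367 for Dnajb9 and -0.138 to 0.025 for Creb3l2. The Ddit3 to Hspa5 difference of H-151 against PBS ranged from -0.277 to 0.14, and the Dnajb9 to Xbp1 differences from -0.083 to 0.9, from -0.572 to 0.872 and from -0.989 to 0.455. Causes were not tested.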

Other observations

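Further promoter motifs of the response were searched in the same RefSeq windows on both strands. The UPR element TGACGTGG was in 222 promoters (0.676%) and in 5 of 88 genes of the lists (Sec23a, Sec24d, Txndc5, Ube2j1 and Vcp). ER stress response element II, a shorter form of the element shown above, was in 12 promoters (0.0365%) and in 2 of 88 genes of the lists, Herpud1 and Dnajb11. The C/EBP-ATF response element TGATGNAA was in 1304 promoters (3.97%) and in 8 of the 24 targets of ATF4 and CHOP with an entry (33.3%). None of the 9 members with an entry held any of these 3 motifs in this window. The genes of the lists with the C/EBP-ATF motif had 3, 5 and 4 of 9 tested genes higher in SR-717 against H-151, SR-717 against PBS and H-151 against PBS, with medians of -0.035, 0.02 and -0.02. Those with the UPR element had 2, 1 and 2 of 5 higher, with medians of -0.16, -0.235 and -0.09.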
